A study of Mus musculus with 8 samples.

Results

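The genes described here encode the machinery that makes ribosomes in the nucleolus. They were 43 named genes, taken as the rows of the expression table that carry their symbols, and all 43 were found among the 19417 genes of the table. They fall into RNA polymerase I and its factors (8 genes), the proteins of the box C/D and H/ACA small nucleolar particles (8), the small subunit processome and pre-40S factors (12), large subunit assembly factors (7), abundant nucleolar proteins (5), and 2 exosome subunits with Myc. RNA was sequenced from primary cortical neurons of C57BL/6 mice after 24 h with the vehicle DMSO, 4-OI at 10 µM, Hemin at 50 µM, or Hemin with 4-OI at those same concentrations, with 2 libraries per group and 8 in all. Hemin is the oxidised iron porphyrin of heme, and 4-OI is 4-octyl itaconate, a cell-permeable ester of itaconate. Genotype was the same in all groups, and the labels give no age of the animals and do not say that libraries came from separate cultures. What the p-values take in is then only how far these libraries differ from each other, and part or all of that may be technical.

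Ribosome production starts when RNA polymerase I, recruited by the factors Ubtf, Rrn3 and the selectivity complex SL1, transcribes the ribosomal DNA repeats into a long precursor. Small nucleolar particles then modify the precursor, box C/D particles by methylation of ribose and H/ACA particles by pseudouridylation, while the small subunit processome and the large subunit assembly factors fold and cut it. Myc is a textbook activator of many of these genes, and neurons depend on nucleolar activity for growth of their processes.

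Levels are FPKM as deposited, fragments corrected for the length of the transcript and the size of the library. Changes are differences of log2(FPKM + 1), which understate the change of genes with low FPKM, and values after ± are standard errors of a limma model over all 13746 genes tested. A gene is called higher or lower when its Benjamini-Hochberg adjusted p, taken over all those genes, was below 0.05. All 43 members passed the filter, which asked for 2 or more libraries with an FPKM of 1 or more. The estimated depth was 8.8 to 10.2 M fragments per library. At that depth the member with the fewest fragments on its coding part, Exosc5, had an estimated 32.7 in its lowest library.

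Hemin moved these genes in both directions rather than as one block. Against DMSO, 15 of the 43 were higher and 7 lower, and 21 passed in neither direction, where 38.7% of all genes tested were called higher and 22.6% lower. The median log2 fold change of the members was −0.01, against 0.19 for all genes tested, and single members ran from −1.02 (Nop10) to 2.12 (Taf1d). The share of members called was thus near that of the whole table. The balance depended on scaling: with median-of-ratios scaling, which brought the median of all genes to −0.02, the members counted 14 higher and 14 lower (30.4% and 32.3% of all genes), and over all genes the higher share of calls was 48.5% instead of 63.1%. No called member changed direction under any scaling tried. The 4 libraries with hemin lay all above the 4 without it for 15 members and all below for 11, with 40.8% and 26.7% of all genes tested doing so, and the ranges overlapped for 17.

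**Figure D1:**
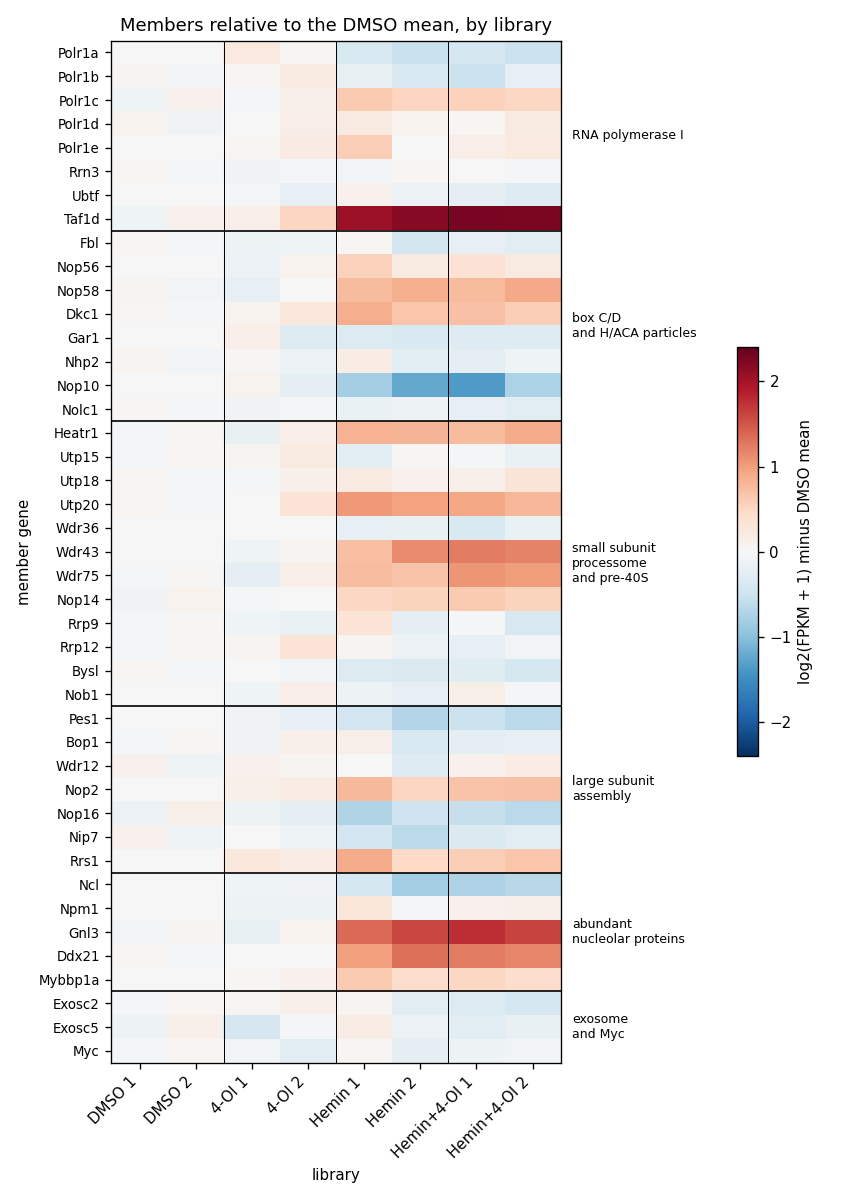
Each row is a member gene, grouped by role, and each column a library; colour gives log2(FPKM + 1) minus the mean of the 2 DMSO libraries, from blue (lower) to red (higher). The 4 libraries with hemin share a pattern of red rows, such as Taf1d, Gnl3 and Ddx21, and blue rows, such as Nop10 and Ncl, within the same role groups.

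Cell type markers differed alongside these values, and 1 library stood apart. Summed FPKM of 10 neuron markers was 2313 to 2484 in the libraries without hemin, 641 in Hemin replicate 1 and 843 to 881 in the other 3 libraries with hemin, and none of the 10 was listed at 0 in any library. Tubb3 alone was 1121 to 1179 FPKM without hemin and 63.6 to 80.3 with it. Snap25 and Gad2 overlapped between libraries with and without hemin, while the other neuron markers were lower in every library with it. For 10 astrocyte markers the sums were 629 to 759, 3815 and 1479 to 1569 in the same order, and for 10 microglia markers 70.9 to 111, 482 and 147 to 154. Most of the astrocyte sum was Apoe, at 462 to 596, 2939 and 1089 to 1206. Dividing-cell markers (12 genes) summed to 147 to 173, 404 and 229 to 238. The sums were 16.1 to 19.2, 72.3 and 46.7 to 51.7 for 8 fibroblast markers, 35.9 to 50.4, 127 and 64.3 to 64.7 for 7 oligodendrocyte lineage markers, and 0.92 to 1.24, 9.59 and 10.3 to 15.0 for 6 endothelial markers, of which 1 or 2 were listed at 0 in 5 libraries. Among the markers tested against DMSO, limma called 7 of 10 neuron markers lower, and 10 of 10 astrocyte, 8 of 9 microglia, 6 of 6 fibroblast, 4 of 6 oligodendrocyte lineage, 2 of 2 endothelial and 11 of 12 dividing-cell markers higher. For hemin plus 4-OI against 4-OI it called 6 of 10 neuron markers lower. Called higher there were 8 of 10 astrocyte, 0 of 9 microglia and 4 of 6 fibroblast markers. The same held for 2 of 6 oligodendrocyte lineage, 2 of 2 endothelial and 9 of 12 dividing-cell markers. The cultures labelled as neurons thus held RNA of other cell types in every library, and the part of this in the members' changes was not tested. In bulk samples fewer cells of a type and less RNA per cell cannot be told apart.

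By its median difference, the Hemin pair was also the least alike among the members themselves. The median absolute log2 difference between the 2 libraries of a pair was 0.0636 in the DMSO pair, 0.157 in the 4-OI pair, 0.229 in the Hemin pair and 0.0960 in the Hemin+4-OI pair. Of the 43 members, 32 were higher in Hemin replicate 1 than in replicate 2. The number higher in replicate 1 was 13 in the 4-OI pair, 22 in the DMSO pair and 23 in the Hemin+4-OI pair. A difference within a pair does not say which of its libraries is the unusual one. Without Hemin replicate 1 the members counted 14 higher and 10 lower (40.8% and 27.3% of all genes), and without Hemin replicate 2 they counted 17 and 7 (42.9% and 26.3%). The lower count was 4 without DMSO replicate 1 or replicate 2 (16.4% and 16.3% of all genes).

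Promoter sequence is shown for 5 members: the 3 that hold the motif TCTCGCGA, and 2 that carry the E-box bound by Myc and differ in their change. These were chosen with their values known. The motif TCTCGCGA and the E-box CACGTG were searched on both strands of RefSeq windows (GRCm38.p6) of 300 bases, 250 before to 50 after the start, which matched 36 of the 43 members. CACGTG reads the same on either strand. TCTCGCGA does not, so its reverse complement TCGCGAGA was counted as well; these 2 forms can overlap each other but not CACGTG. Each stretch below runs 5′ to 3′ on the gene's strand from 220 bases before to 10 bases after the start, with the motif, in either orientation, in capitals.
Polr1c promoter, chr17:46248036-46248265, minus strand: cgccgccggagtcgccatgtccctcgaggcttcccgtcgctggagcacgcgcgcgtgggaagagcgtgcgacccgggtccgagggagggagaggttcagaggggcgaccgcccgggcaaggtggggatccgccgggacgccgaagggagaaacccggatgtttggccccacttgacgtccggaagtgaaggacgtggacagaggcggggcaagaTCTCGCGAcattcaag
Nop58 promoter, chr1:59684786-59685015, plus strand: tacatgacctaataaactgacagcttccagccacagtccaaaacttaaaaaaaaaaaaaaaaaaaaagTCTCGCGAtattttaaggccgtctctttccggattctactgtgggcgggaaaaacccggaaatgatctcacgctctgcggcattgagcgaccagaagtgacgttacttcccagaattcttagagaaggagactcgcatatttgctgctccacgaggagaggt
Nop14 promoter, chr5:34660139-34660368, minus strand: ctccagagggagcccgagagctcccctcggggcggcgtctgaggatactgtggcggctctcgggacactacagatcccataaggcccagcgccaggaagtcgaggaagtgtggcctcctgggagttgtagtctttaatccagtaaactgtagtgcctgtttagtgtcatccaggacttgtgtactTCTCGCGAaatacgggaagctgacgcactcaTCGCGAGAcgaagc
Nop2 promoter, chr6:125131663-125131892, plus strand: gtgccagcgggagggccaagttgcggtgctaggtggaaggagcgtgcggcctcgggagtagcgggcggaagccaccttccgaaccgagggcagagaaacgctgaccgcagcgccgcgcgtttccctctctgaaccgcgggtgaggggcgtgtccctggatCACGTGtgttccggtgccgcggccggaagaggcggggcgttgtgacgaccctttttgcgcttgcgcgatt
Rrn3 promoter, chr16:13780479-13780708, plus strand: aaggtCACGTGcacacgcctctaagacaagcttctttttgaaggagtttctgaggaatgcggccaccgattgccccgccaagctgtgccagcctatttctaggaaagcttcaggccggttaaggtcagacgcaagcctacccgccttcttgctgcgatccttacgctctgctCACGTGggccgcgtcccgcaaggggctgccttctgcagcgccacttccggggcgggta

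TCTCGCGA stood in the windows of 3 of the 36 members (8.33%), where 1.13% of all genes with a window, and 0.995% of all windows, held it. Those shares include genes that were not tested. Among tested genes with a window that are no members, 245 of 10576 held it. These were Polr1c, with its first base 6 bases before the start, Nop14, 35 before and again, on the other strand, 4 before, and Nop58, 152 before. Each was called higher with hemin both without and with 4-OI. Of 245 other genes tested that hold the motif, 26.9% were higher in both comparisons, beside 30.1% of all genes tested. CACGTG stood in the windows of 8 of the 36 (22.2%), against 8.09% of genes and 7.15% of windows, and 1218 of the 10576 tested genes that are no members. Of those 8, Utp20, Wdr43, Nop2 and Mybbp1a were called higher against DMSO and Pes1 lower, while Rrn3, Utp18 and Exosc5 passed in neither direction. Among 1218 other genes tested with the E-box, 36.5% were higher and 22.8% lower, near the shares of all genes. Rrn3 held the E-box at 2 places, 215 and 48 bases before the start, and its level hardly differed between libraries. Holding the E-box thus went with all 3 outcomes. A match describes the letters of the window and is not a binding site.

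Among the RNA polymerase I genes, 2 were called higher and 1 lower of 8 against DMSO, beside 38.7% and 22.6% of all genes tested. The enzyme's own subunits went different ways. Taf1d, a subunit of SL1, which places the polymerase on the ribosomal promoter, had the largest change of the 43 members. Its FPKM was 13.4 and 15.7 with DMSO, 16.4 and 21.3 under 4-OI, 63.2 and 69.5 under Hemin, and 74.3 and 73.8 under Hemin+4-OI. All 4 libraries with hemin stood far above the highest without it. The log2 fold change was 2.12 ± 0.14 against DMSO (limma adjusted p = 2.33e-05). Exons of Taf1d overlap Cep295 on the other strand in GENCODE, and Cep295 stayed between 4.03 and 6.20 FPKM in the 8 libraries. They also overlap 4931406C07Rik, which was 8.15 to 9.89 FPKM without hemin, 13.6 in Hemin replicate 1 and 7.04 to 9.01 in the other 3 with it.

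Polr1a, the largest catalytic subunit, had 8.66 and 8.70 FPKM with DMSO, 10.4 and 8.88 under 4-OI, 6.42 and 5.72 under Hemin, and 6.24 and 5.81 under Hemin+4-OI. Every library with hemin lay below every library without it, and the change was −0.46 ± 0.13 (limma adjusted p = 0.0178). It missed the threshold without DMSO replicate 1 (adjusted p = 0.0873) or DMSO replicate 2 (0.0915). Polr1c, which RNA polymerases I and III share, moved the other way. It had 22.8 and 26.2 FPKM with DMSO, 23.7 and 27.0 under 4-OI, 38.2 and 35.2 under Hemin, and 36.5 and 34.9 under Hemin+4-OI, with no overlap between libraries with and without hemin (0.56 ± 0.11, limma adjusted p = 0.00282).

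Polr1b, the second catalytic subunit, had 6.35 and 5.72 FPKM with DMSO and 5.19 and 4.48 with Hemin, and its change of −0.27 ± 0.16 did not pass (limma adjusted p = 0.184), although it did with median-of-ratios scaling (−0.46) and quantile normalization (−0.57). Polr1d, the partner of Polr1c, had levels of 76.0 to 94.1 FPKM in all 8 libraries, and its change was 0.15 ± 0.11. Rrn3, which ties the polymerase to SL1, lay between 18.1 and 19.9 FPKM in all 8, the narrowest range among these genes, and Ubtf, which coats the active repeats, between 22.3 and 29.8. Neither passed, with −0.01 ± 0.10 and −0.02 ± 0.12. The subunit Polr1e was 3.03 to 3.61 FPKM without hemin, 5.06 in Hemin replicate 1 and 3.07 to 3.75 in the other 3 with hemin, so its 0.30 ± 0.20 rested on that library. The product of this enzyme is represented in the table by Rn45s, the precursor transcript, at 2.74 and 3.41 FPKM with DMSO, 4.98 and 4.90 under 4-OI, 280 and 343 under Hemin, and 417 and 426 under Hemin+4-OI. Whether and how ribosomal RNA was removed before sequencing is not stated by the sources at hand, and the entry stands for a repeated locus.

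**Figure D2:**
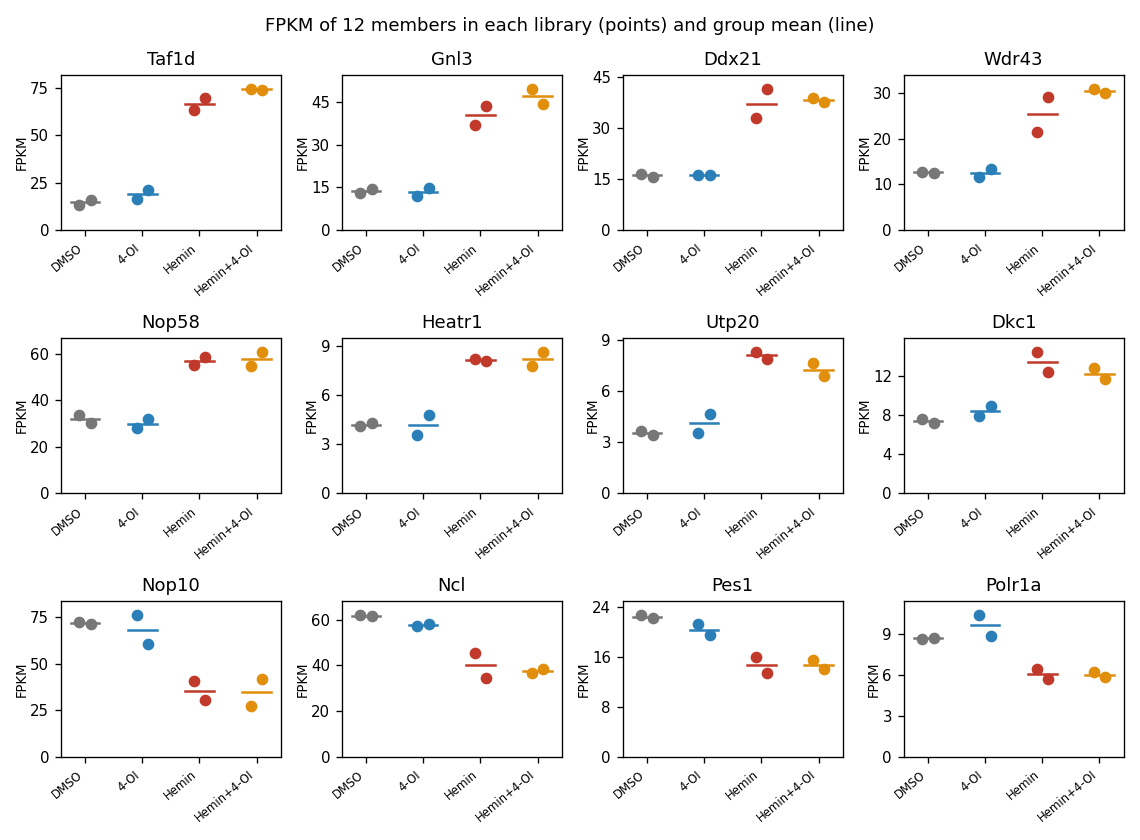
Each panel is 1 member, with FPKM on an axis from 0, a point per library and a line at the group mean (n = 2). In 8 of the 12 genes, Taf1d to Dkc1, the 4 libraries with hemin sit above the 4 without, and in the last 4, Nop10 to Polr1a, they sit below.

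The small nucleolar particles showed the same mix, with 3 of 8 genes higher and 1 lower against DMSO (38.7% and 22.6% of all genes tested). Box C/D particles are built on Nop56, Nop58 and the methyltransferase Fbl. Nop58 had 33.6 and 30.3 FPKM with DMSO, 27.8 and 32.0 under 4-OI, 54.95 and 58.6 under Hemin, and 54.7 and 60.6 under Hemin+4-OI, and the groups with and without hemin did not overlap (0.81 ± 0.11, limma adjusted p = 0.000419). Nop56 had 49.9 and 49.1 with DMSO, 44.6 and 52.4 under 4-OI, 73.3 and 57.6 under Hemin, and 63.6 and 57.6 under Hemin+4-OI. Its change was smaller, 0.39 ± 0.13 (limma adjusted p = 0.0333), and the call held in only 7 of 17 alternatives. It missed the threshold with TPM (0.26, limma adjusted p = 0.0813) and median-of-ratios scaling (0.16, limma adjusted p = 0.287). The change was 0.22 without Hemin replicate 1, and 0.40 and 0.38 without DMSO replicate 1 or 2. Fbl had 66.6 and 62.7 with DMSO, 59.4 and 60.4 under 4-OI, 65.4 and 47.4 under Hemin, and 56.0 and 54.3 under Hemin+4-OI. Hemin replicate 1 lay between the DMSO values and Hemin replicate 2 below every library without hemin. Fbl passed in neither direction (−0.21 ± 0.14), although without Hemin replicate 1 the change was −0.44. It was called lower with TPM (−0.34, limma adjusted p = 0.0282) and median-of-ratios scaling (−0.44, limma adjusted p = 0.0202).

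H/ACA particles have 4 core proteins, the pseudouridine synthase Dkc1 and its partners Nop10, Nhp2 and Gar1. Dkc1 had 7.58 and 7.21 FPKM with DMSO, 7.86 and 8.95 under 4-OI, 14.4 and 12.4 under Hemin, and 12.7 and 11.6 under Hemin+4-OI. Nop10 had 72.6 and 71.1 with DMSO, 76.0 and 60.7 under 4-OI, 40.4 and 30.2 under Hemin, and 27.4 and 41.8 under Hemin+4-OI. Libraries with and without hemin separated for both genes but in opposite directions. Dkc1 rose by 0.77 ± 0.13 (limma adjusted p = 0.00134) and Nop10 fell by 1.02 ± 0.21 (limma adjusted p = 0.00331), the largest fall of the 43. Exons of Dkc1 overlap Mpp1 on the other strand, which was 7.80 to 8.56 FPKM without hemin, 25.1 in Hemin replicate 1 and 14.0 to 15.9 in the other 3 with it.

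Gar1 had 15.6 in both DMSO libraries, 17.5 and 12.4 under 4-OI, 12.3 and 11.97 under Hemin, and 12.4 in both Hemin+4-OI libraries, just below the lower 4-OI library. Its change of −0.34 ± 0.15 did not pass (limma adjusted p = 0.0831), but it did with TPM, median-of-ratios scaling (−0.55) and quantile normalization and without either 4-OI library. Nor did the change of Nhp2 pass (−0.05 ± 0.15), whose libraries with and without hemin overlapped, at 39.3 to 53.5 FPKM. Nolc1, a chaperone of both particle classes, had 21.2 to 23.4 FPKM with hemin and 24.0 to 26.2 without, and did not pass (−0.13 ± 0.09), except under median-of-ratios scaling, where limma gave −0.36 (adjusted p = 0.0106).

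These opposite moves showed as ratios of FPKM within each library, a scale that does not depend on library scaling. The gene pairs were chosen after their values were seen, so the ratios are a description. Where 1 gene was higher and the other lower in every library with hemin, their ratio had to separate. Bop1 to Pes1, a pair not in the figure, overlapped, at 0.983 to 1.27 without hemin and 1.24 to 1.57 with it. Nop10 to Dkc1 was 6.78 to 9.87 in the libraries without hemin and 2.15 to 3.60 in those with it. Nop58 to Fbl was 0.468 to 0.529 and 0.840 to 1.24, and Polr1c to Polr1a 2.28 to 3.04 and 5.85 to 6.15. A ratio shows unequal change and does not say which of its genes moved.

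**Figure D3:**
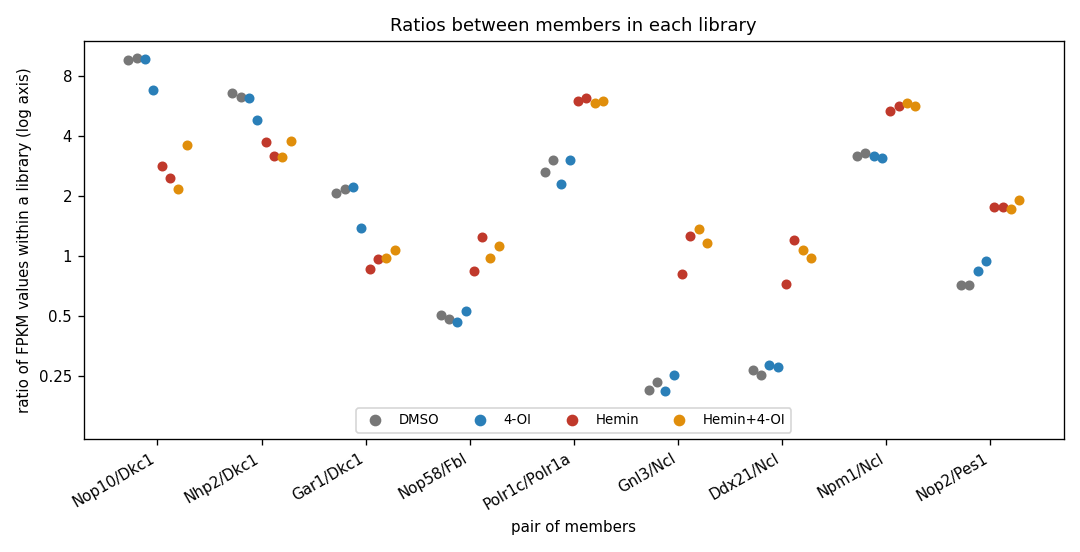
Points are ratios of FPKM between 2 members in each of the 8 libraries, on a log axis, coloured by group. These 9 pairs were chosen with their values known, and in each the libraries with hemin do not overlap those without. Nop10 to Dkc1 fell from 6.78 to 9.87 down to 2.15 to 3.60, and Gnl3 to Ncl went from 0.209 to 0.252 up to 0.810 to 1.36.

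Of the 12 small subunit factors, 5 were higher and 1 lower against DMSO (38.7% and 22.6% of all genes tested). The 5 included the largest proteins of the processome. Utp20, a long repeat protein of this particle, had 3.66 and 3.41 FPKM with DMSO, 3.57 and 4.68 under 4-OI, 8.29 and 7.91 under Hemin, and 7.66 and 6.86 under Hemin+4-OI. Heatr1, of the subcomplex that binds the precursor as it is made, had 4.11 and 4.28, then 3.58 and 4.82, then 8.24 and 8.12, and 7.77 and 8.64 in the same group order. In both genes each library with hemin was well above each one without. The changes were 1.00 ± 0.15 for Utp20 (limma adjusted p = 0.000799) and 0.82 ± 0.15 for Heatr1 (0.0022). Heatr1 overlaps Lgals8 on the other strand, which itself went from 8.06 to 9.35 FPKM without hemin to 15.7 to 18.7 with it, and whether counting used strand is not stated.

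Wdr43 and Wdr75 belong to the same early subcomplex as Heatr1. Wdr43 had 12.7 and 12.5 FPKM with DMSO, 11.7 and 13.3 under 4-OI, 21.5 and 29.0 under Hemin, and 30.8 and 29.98 under Hemin+4-OI. Wdr75 had 13.1 and 13.8, then 11.5 and 15.1, then 23.1 and 22.2, and 29.1 and 28.0. Both were higher in every library with hemin, by 0.94 ± 0.14 (limma adjusted p = 0.000834) and 0.71 ± 0.13 (0.00202). Nop14, a processome scaffold protein, had 14.8 and 16.7 with DMSO, 15.4 and 15.8 under 4-OI, 22.4 and 23.3 under Hemin, and 24.8 and 23.0 under Hemin+4-OI, again without overlap (0.52 ± 0.11, limma adjusted p = 0.00325).

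Utp15, of that same early subcomplex, went with none of these: it had 7.38 and 7.89 FPKM with DMSO and 6.27 and 7.77 with Hemin, and its −0.11 ± 0.14 did not pass. Bysl, a late pre-40S factor, had 11.5 and 11.1 with DMSO, 11.1 and 10.7 under 4-OI, 8.72 and 8.59 under Hemin, and 9 and 8.14 under Hemin+4-OI. All 4 libraries with hemin were lower, by 0.35 ± 0.12 on the log2 scale against DMSO (limma adjusted p = 0.0297), and the call was lost without DMSO replicate 1 (adjusted p = 0.152) or 2 (0.111). Bysl overlaps Ccnd3 on the other strand, which was 16.3 to 18.5 FPKM without hemin and 43.3 to 48.0 with it. Wdr36, a processome repeat protein, was 13.2 to 13.5 FPKM without hemin and 10.2 to 11.9 with it, and did not pass (−0.19 ± 0.11), though it did with median-of-ratios scaling (−0.40) and quantile normalization (−0.32). Utp18, Rrp9, Rrp12 and Nob1, the nuclease that trims the last precursor of the small subunit RNA, overlapped between libraries with and without hemin. Their changes were −0.16 to 0.16 and none passed, but Nob1 was called lower under median-of-ratios scaling (−0.38).

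Of the 7 large subunit assembly genes, 3 were lower and 2 higher against DMSO (22.6% and 38.7% of all genes tested). Pes1, the centre of the PeBoW complex that is needed to process the large subunit precursor, had 22.6 and 22.2 FPKM with DMSO, 21.2 and 19.4 under 4-OI, 15.97 and 13.3 under Hemin, and 15.4 and 14.1 under Hemin+4-OI. Each library with hemin was below each without (−0.59 ± 0.12, limma adjusted p = 0.00322). Its partners Bop1 and Wdr12 did not pass, with −0.12 ± 0.17 and −0.16 ± 0.14, although Wdr12 was called lower with median-of-ratios scaling (−0.37). Bop1 was 25.1 in Hemin replicate 1 and 17.0 in Hemin replicate 2, on either side of the DMSO values of 22.2 and 22.9, and without Hemin replicate 1 its change was −0.39 (limma adjusted p = 0.00751).

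Nop2, an RNA methyltransferase of the large subunit, went up where Pes1 went down. It had 16.2 and 15.9 FPKM with DMSO, 17.9 and 18.3 under 4-OI, 28.1 and 23.4 under Hemin, and 26.4 and 26.7 under Hemin+4-OI (0.65 ± 0.11, limma adjusted p = 0.0014). The ratio of Nop2 to Pes1 was 0.713 to 0.941 without hemin and 1.72 to 1.90 with it. Rrs1, which brings the 5S particle into the large subunit, had 13.3 in both DMSO libraries, 16.2 and 15.1 under 4-OI, 25.4 and 18.9 under Hemin, and 20.5 and 21.6 under Hemin+4-OI. Every library with hemin was above the others (0.68 ± 0.14, limma adjusted p = 0.00347).

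Nop16 and Nip7 moved with Pes1. Nop16 had 19.9 and 24.2 FPKM with DMSO, 20.1 and 18.5 under 4-OI, 12.9 and 15.3 under Hemin, and 14.6 and 13.6 under Hemin+4-OI (−0.61 ± 0.13, limma adjusted p = 0.00467). Nip7 had 13.8 and 11.9, then 13.0 and 11.9, then 9.06 and 7.83, and 9.91 and 10.4 (−0.55 ± 0.13, limma adjusted p = 0.00658). Libraries with hemin were below the others in both. Leaving out DMSO replicate 2 took Nop16 to an adjusted p of 0.0524, and leaving out DMSO replicate 1 took Nip7 to 0.0694.

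The abundant nucleolar proteins included 2 of the 3 largest rises among the members and a fall of Ncl. Gnl3, also called nucleostemin, is a GTPase that shuttles between nucleolus and nucleoplasm. It had 13.2 and 14.4 FPKM with DMSO, 11.97 and 14.7 under 4-OI, 36.9 and 43.6 under Hemin, and 49.6 and 44.4 under Hemin+4-OI. Ddx21, an RNA helicase, had 16.5 and 15.6, then 16.1 and 16.2, then 32.8 and 41.5, and 38.9 and 37.5. Both stood clear of every library without hemin, by 1.48 ± 0.13 (limma adjusted p = 7.57e-05) and 1.15 ± 0.12 (0.000141). Exons of Gnl3 overlap Pbrm1 on the other strand, which stayed between 13.2 and 16.2 FPKM.

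Ncl, nucleolin, had 61.9 and 61.4 FPKM with DMSO, 57.1 and 58.3 under 4-OI, 45.5 and 34.5 under Hemin, and 36.5 and 38.5 under Hemin+4-OI. It fell in all 4 libraries with hemin (−0.63 ± 0.13, limma adjusted p = 0.00306). Npm1, nucleophosmin, the member with the highest FPKM in every library, did not follow. It had 196 and 200.4 with DMSO, 181 in both 4-OI libraries, 243 and 194 under Hemin, and 214.5 and 216 under Hemin+4-OI (0.13 ± 0.11, limma adjusted p = 0.33), and its value is uncertain because processed copies of Npm1 exist in the genome. The ratio of Npm1 to Ncl was 3.11 to 3.26 without hemin and 5.35 to 5.87 with it. Mybbp1a, a nucleolar protein that binds Myb factors, was 20.8 to 22.5 FPKM without hemin and 28.5 to 33.2 with it, with no overlap (0.53 ± 0.10, limma adjusted p = 0.00262).

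Exosc2 and Exosc5, subunits of the exosome that trims the ends of ribosomal precursors, and Myc did not pass against DMSO. Exosc2 had 11.7 and 12.4 FPKM with DMSO, 12.2 and 13.1 under 4-OI, 12.5 and 9.97 under Hemin, and 9.41 and 8.74 under Hemin+4-OI, so only the Hemin+4-OI pair lay wholly below the controls. Exosc5 overlapped between libraries with and without hemin, at 5.27 to 8.28. Myc, the transcription factor, had 20.2 and 21.7 with DMSO, 20.1 and 17.3 under 4-OI, 21.3 and 18.0 under Hemin, and 19.2 and 19.9 under Hemin+4-OI. Its libraries with and without hemin overlapped, and the change with hemin was −0.09 ± 0.12 (limma adjusted p = 0.525). Both 4-OI libraries and both Hemin+4-OI libraries lay below the DMSO pair.

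Hemin was also compared in the presence of 4-OI, a comparison with 4 other libraries that shares only the model's estimate of the spread. Against 4-OI alone, hemin plus 4-OI gave 14 members higher and 8 lower, where 33.3% and 24.2% of all genes tested were called. All 14 were among the 15 higher without 4-OI (93.3% of the 15), and 6 of the 8 lower were among the 7 (75.0% of the 8, 85.7% of the 7). Calls were shared over all genes tested too: of those higher, 77.8% of the calls without 4-OI and 90.5% of the calls with it, and of those lower, 86.8% and 81.0%. Of all genes tested, 30.1% were higher in both comparisons and 19.6% lower in both. Values lay close for Taf1d (1.93 ± 0.14), Ddx21 (1.19 ± 0.12), Nop10 (−0.98 ± 0.21) and Ncl (−0.61 ± 0.13). Wdr43 and Wdr75 were 1.22 ± 0.14 and 1.06 ± 0.13, beside 0.94 and 0.71 without 4-OI.

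Calls differed for 4 members. Nop56 was 0.32 ± 0.13 with 4-OI present (limma adjusted p = 0.0706) and Nip7 −0.27 ± 0.13 (0.109), both called only without it. Polr1b at −0.49 ± 0.16 (limma adjusted p = 0.0334) and Exosc2 at −0.44 ± 0.14 (0.0234) were called lower only with it. For none of these 4 did the interaction pass, with limma adjusted p of 0.854 to 0.951, so no difference between the comparisons was shown. The counts of this comparison moved with single libraries. Without 4-OI replicate 1 they were 10 higher and 2 lower (23.0% and 17.7% of all genes), when Polr1a, Polr1b, Bysl, Pes1, Nop16 and Exosc2 missed the threshold. The lower count was 5 without 4-OI replicate 2 (17.4% of all genes) and 4 without Hemin+4-OI replicate 1 or 2 (17.1% and 17.4%). It was 13 without Hemin replicate 1 or 2 (30.5% each), whose spread enters the model although they are in neither group.

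**Figure D4:**
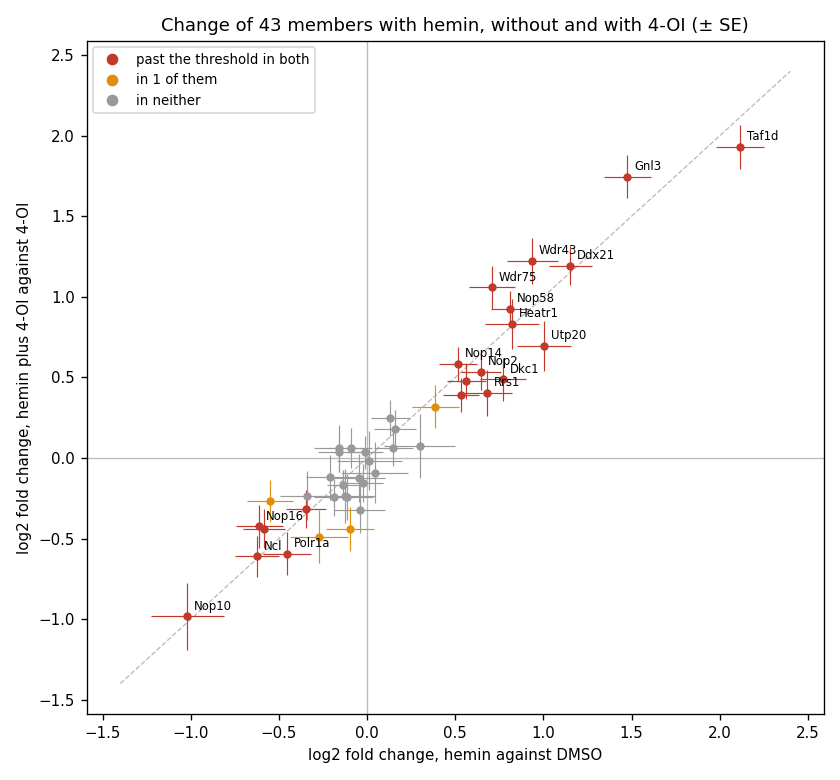
Each point is 1 of the 43 members, with its log2 fold change in hemin against DMSO on the x axis and in hemin plus 4-OI against 4-OI on the y axis, bars giving ± SE and the dashed line equality. The 20 members past the threshold in both comparisons lie near the line, 14 upper right and 6 lower left, and the colours separate those called in both, in 1 or in neither.

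4-OI alone changed none of the members past the threshold, and none of the 13746 genes tested was called (0% higher and 0% lower). Members ran from −0.21 to 0.34 with a median of −0.01, and their standard errors were 0.09 to 0.21. Before adjustment 1 member, Taf1d at 0.34 ± 0.14, was below 0.05, as were 179 of all genes; its limma adjusted p was 1. Taf1d was 16.4 and 21.3 FPKM with 4-OI and 13.4 and 15.7 with DMSO, so the groups did not overlap, but by less than 1 FPKM.

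Added to hemin, 4-OI again moved no member past the threshold, with 0% of all genes called in either direction. Changes ran from −0.28 (Exosc2) to 0.32 (Wdr75), and before adjustment 1 member, Wdr75 at 0.32 ± 0.13, was below 0.05, as were 1209 of all genes. The limma adjusted p of Wdr75 was 0.556. The member counts of this comparison changed only when Hemin replicate 2 was left out. Without Hemin replicate 2, which leaves Hemin replicate 1 as the only library of its group, assumed to vary like the other groups, 1 member (Wdr43) was higher and 8 were lower: Ubtf, Fbl, Nhp2, Rrp9, Bop1, Ncl, Npm1 and Exosc2. In that setting 13.9% of all genes were higher and 19.0% lower. Leaving out Hemin replicate 1 instead gave 0 of either. The interaction, the effect of 4-OI under hemin minus that without, was called for 0 members and 0% of all genes, with an unadjusted p below 0.05 for 0 members and 689 genes. Without Hemin replicate 2 it was called for 3, Wdr43 (0.49), Rrs1 (−0.48) and Exosc2 (−0.50), where 7.40% of all genes were higher and 11.6% lower.

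The wider pathway, 145 further genes of ribosome production and the Myc network, counted 51 higher and 19 lower with hemin against DMSO. The 9 genes of the Myc network gave 2 of those higher and 1 of those lower. Of all genes tested, 38.7% were higher and 22.6% lower. Those shares also stand beside the counts of each list below. The 145 genes had a median log2 fold change of 0.15 beside 0.19 for all genes tested. Among 14 other RNA polymerase I genes 5 were higher and 2 lower. Polr1h rose from 16.1 and 14.4 FPKM with DMSO to 39.0 and 31.7 with Hemin (1.16 ± 0.23, limma adjusted p = 0.00289), and the SL1 subunit Taf1a from 6.27 and 5.70 to 11.7 and 16.1 (1.08 ± 0.16). Polr2e, shared by all 3 polymerases, fell from 51.2 and 50.0 to 31.1 and 21.1 (−0.96 ± 0.17), and Polr1g was also lower (−0.67 ± 0.18). As in the members, subunits of 1 enzyme went both ways.

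Of 12 other small nucleolar particle genes, 1 was higher and 3 lower. Naf1, which assembles H/ACA particles with Dkc1, rose by 0.84 ± 0.13 on the log2 scale, as Dkc1 did. Coil, the scaffold of the Cajal bodies where these particles mature, fell from 13.4 and 14.1 FPKM to 4.54 and 4.28 (−1.45 ± 0.12, limma adjusted p = 5.03e-05), and the assembly factors Pih1d1 and Znhit3 were lower too (−0.57 ± 0.16 and −0.45 ± 0.15).

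Small subunit genes outside the 12 members numbered 42, with 18 higher and 3 lower. The processome genes Ngdn (1.69 ± 0.18), Mphosph10 (1.53 ± 0.12) and Utp11 (1.38 ± 0.13) rose most. Mphosph10 went from 7.65 and 8.32 FPKM to 23.5 and 26.5. Imp3, which works in 1 complex with Mphosph10, was lower (−0.57 ± 0.12), as were Nol6 (−0.95 ± 0.10) and Rrp7a (−0.53 ± 0.13). Nol6 went from 24.7 and 24.3 to 12.3 and 12.01.

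Among 56 other large subunit genes 22 were higher and 7 lower. Ppan (1.46 ± 0.13), Brix1 (1.20 ± 0.11) and Tex10 (1.18 ± 0.15) rose most and Gnl3l, the relative of Gnl3, fell most (−0.77 ± 0.14), from 40.5 and 42.8 FPKM to 20.7 and 28.0. Wdr18 (−0.63 ± 0.13) and Nol9 (−0.63 ± 0.13) were also lower, and both are linked, like Tex10, to removal of an internal spacer of the precursor. Other exosome genes were even, 3 higher, led by Exosc3 (0.84 ± 0.12), and 3 lower, led by Exosc4 (−0.55 ± 0.15), of 12. In the Myc network of 9 genes, Mxd1, a repressor that competes for the partner of Myc, rose from 3.57 and 3.22 FPKM to 12.2 and 18.1 (1.85 ± 0.18, limma adjusted p = 9.94e-05) and Mxi1 by 0.52 ± 0.12, while Mycl fell from 26.4 and 26.5 to 8.09 and 11.96 (−1.34 ± 0.16).

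**Figure D5:**
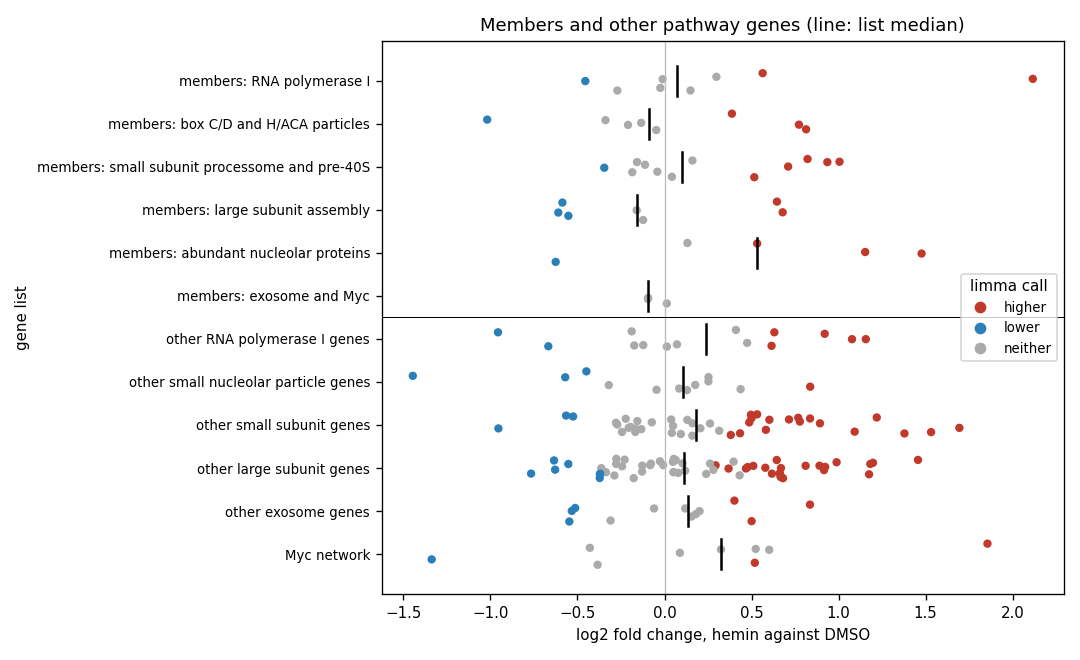
Each point is a gene at its log2 fold change in hemin against DMSO, in rows for the 6 member groups above the line and 6 lists of other pathway genes below it, coloured by the limma call, with a black bar at each list's median and points spread vertically only for sight. Most lists hold both red and blue points, such as the other large subunit genes with 22 higher and 7 lower of 56.

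Some members hold small nucleolar RNA genes within their span, on the same strand. In GENCODE M21, 7 members hold such genes inside them: Taf1d (8), Nop56 (5), Nop58 (4), Wdr43, Ncl and Gnl3 (3 each) and Dkc1 (1). Against DMSO, 6 of these 7 were higher and 1, Ncl, was lower, while 9 of the other 36 members were higher and 6 lower. Of all genes tested, 38.7% were higher and 22.6% lower, and a link of the calls to such genes was not tested. Over 213 host genes that are no members, 43.7% were higher and 21.1% lower, with a median log2 fold change of 0.22. The deposited table does not say which part of a host its fragments came from. The median coding length of the members was 2031 bases in the 15 higher, 1308 in the 7 lower and 1374 in the 21 others. The ranges overlapped widely, at 918 to 8367, 192 to 5151 and 388.5 to 3885 bases. Coding length by call was not compared over all genes tested.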

How the data were processed

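The authors deposited 1 table of FPKM values for 8 libraries. The submitters' processing notes name Bowtie2, RSEM and mm8; for versions, annotation and strand the sources used here give nothing. FPKM holds no counts, so log2(FPKM + 1) was tested with limma 3.58.1 in R 4.3.3, with a mean per group in 1 fit of all 8 libraries, an intensity trend, two-sided tests and 4 residual degrees of freedom. Genes needed 2 or more libraries with an FPKM of 1 or more. Depth was estimated from the steps between low FPKM values; 77.9% to 82.0% of these came within 0.15 of a whole fragment. Members and lists were chosen with earlier results of these data known. All members may be named; of each other list, up to 3 genes per direction with the largest change in hemin against DMSO past the threshold. GENCODE M21 (GRCm38) gave coding lengths, hosts and overlapping genes, and RefSeq the promoters; symbols were matched, and no coordinates were moved between builds. Tables were made with Python 3.11.15 and pandas 2.3.3. The procedure was also run on simulated data. Far fewer genes changed there than were called here, so that run does not vouch for these calls.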

Additional observations from a re-analysis of the deposited data

How the results depend on the processing

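Hemin against DMSO gave the same call in every alternative for 14 of the 15 higher members (all but Nop56) and for 3 of the 7 lower ones (Nop10, Ncl and Pes1). Of the 21 called in neither direction, 10 stayed so in every alternative. No called member changed direction. Scaling set the number lower: median-of-ratios scaling, which takes the median of all genes from 0.19 to −0.02, gave 14 members higher and 14 lower with a member median of −0.23, quantile normalization 15 and 10, and TPM 14 and 9. The share of called genes that were higher went from 63.1% to 48.5% under median-of-ratios scaling and to 47.4% under quantile normalization over all genes, and from 68.2% to 50.0% and 60.0% among members. For hemin plus 4-OI against 4-OI, median-of-ratios scaling gave 12 and 12; 10 of 14 higher and 2 of 8 lower members (Ncl and Nop10) kept their call in every alternative. Leaving out 1 library at a time gave 14 to 17 higher and 4 to 10 lower members for hemin against DMSO, 10 to 16 and 2 to 13 for hemin plus 4-OI against 4-OI, 0 to 1 and 0 to 8 for hemin plus 4-OI against hemin, and 0 to 1 and 0 to 2 for the interaction; the counts above 0 in the last 2 came without Hemin replicate 2. 4-OI against DMSO gave 0 members in every alternative. The cause of these shifts was not tested.

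No pairing by replicate number was seen: differences between replicates correlated between groups at −0.09 to 0.05. Such values cannot show that the libraries were unpaired. With the replicate number as a block, hemin against DMSO again gave 15 and 7 members. Hemin plus 4-OI against 4-OI gave 14 and 7, Bysl dropping out. With 2 libraries per group and low fragment numbers for members such as Exosc5, small changes were not detectable.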
